A study of Caenorhabditis elegans with 2 samples.

Results

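The cuticle collagen genes of Caenorhabditis elegans were examined for binding of the transcription factor PHA-4 in whole L4 larvae. They were taken as the protein-coding genes with names beginning col-, bli-, rol- or sqt-, together with dpy-2, dpy-3, dpy-4, dpy-5, dpy-7, dpy-8, dpy-9, dpy-10, dpy-13, dpy-14 and dpy-17. This gave 180 of the 19973 protein-coding genes on the nuclear chromosomes, namely 156 col, 6 bli, 4 rol, 3 sqt and 11 dpy genes. Binding was measured by chromatin immunoprecipitation followed by sequencing (ChIP-seq) in 1 group of 2 biological replicates, with no second condition. All larvae were of strain OP37, of genotype unc-119(ed3) III; wgIs37, a single transgenic line in which the insertion wgIs37 carries eGFP-tagged pha-4, and the sexes were mixed. The labels give pha-4 as the antibody's target, and the sample descriptions give ChIP-seq against eGFP-pha-4, the tagged form. Whole animals were used, so a region bound in a few cells and one bound weakly in many cannot be told apart.

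Cuticle collagens are the main structural proteins of the worm's exoskeleton, and most are secreted by the epidermis, which lays down a new cuticle before each molt. They are short chains in which glycine recurs at a fixed interval over long stretches (written Gly-X-Y), which lets the chains wind into a triple helix. PHA-4 is the FoxA factor that specifies the pharynx and also acts in the gut, while factors such as BLMP-1, NHR-23 and LIN-29 are known for roles in the epidermis and in molting. The label held for 175 of the 180 genes, whose annotated coding sequences held 20 to 198 Gly-X-Y triplets (median 51). The other 5 held none. They were bli-3, which encodes a dual oxidase that cross-links cuticle proteins, bli-4, a proprotein convertase, bli-5, a protease inhibitor, rol-3, a receptor tyrosine kinase, and col-17. In col-17 the annotated reading frame held 0 triplets and another frame of the same sequence held 51.

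The sequences below are from the WBcel235 assembly (RefSeq), plus strand, and reach 50 bp to each side of the summit of the strongest region at 5 genes. They are shown because these genes held the 5 strongest regions near any cuticle collagen gene. Capitals mark a run of 12 bases that the col-38 and bli-6 windows share, the PHA-4 consensus in the col-71 window, and the bases of a tRNA gene in the col-185 window.
col-38, chrII:8569490-8569590: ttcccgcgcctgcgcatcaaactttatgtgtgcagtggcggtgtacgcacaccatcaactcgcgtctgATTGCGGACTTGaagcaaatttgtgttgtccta
col-2, chrIV:10085819-10085919: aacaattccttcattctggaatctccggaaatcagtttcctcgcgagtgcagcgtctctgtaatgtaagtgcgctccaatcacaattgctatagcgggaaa
bli-6, chrIV:6376700-6376800: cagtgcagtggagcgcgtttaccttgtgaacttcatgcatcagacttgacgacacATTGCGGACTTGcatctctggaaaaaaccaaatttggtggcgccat
col-71, chrII:3502801-3502901: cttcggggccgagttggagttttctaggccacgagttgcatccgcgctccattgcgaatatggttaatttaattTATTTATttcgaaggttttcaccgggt
col-185, chrX:13511929-13512029: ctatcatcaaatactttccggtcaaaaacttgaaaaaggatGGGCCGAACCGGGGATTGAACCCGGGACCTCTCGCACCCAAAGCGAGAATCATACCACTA

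Cuticle collagen genes held few PHA-4 regions in their promoters. A gene was counted when the summit of a deposited region lay from 1000 bp upstream to 200 bp downstream of one of its annotated transcript 5′ ends, a stretch called its window here. In the authors' list thresholded by the irreproducible discovery rate (IDR), which keeps 1484 regions, 3 of the 180 genes had a summit (1.67%, exact 95% interval 0.345 to 4.79%), against 6.24% of all protein-coding genes. They were col-38, col-2 and bli-6. In the pooled list, which holds 30000 regions with background kept on purpose, 44 had one (24.4%, 18.4 to 31.4%), against 45.0% of all protein-coding genes. Replicate 1 listed a summit at 33 of the genes (18.3%, against 37.0% of all) and replicate 2 at 31 (17.2%, against 37.5%). Both replicates did so at 12 (6.67%, 3.49 to 11.4%), against 26.9% of all. No list held a summit at 117 of the genes (65.0%, against 47.6%). The intervals cover the counting of genes and not the spread between replicates, and no test was made, since the design holds a single group.

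**Figure D1:**
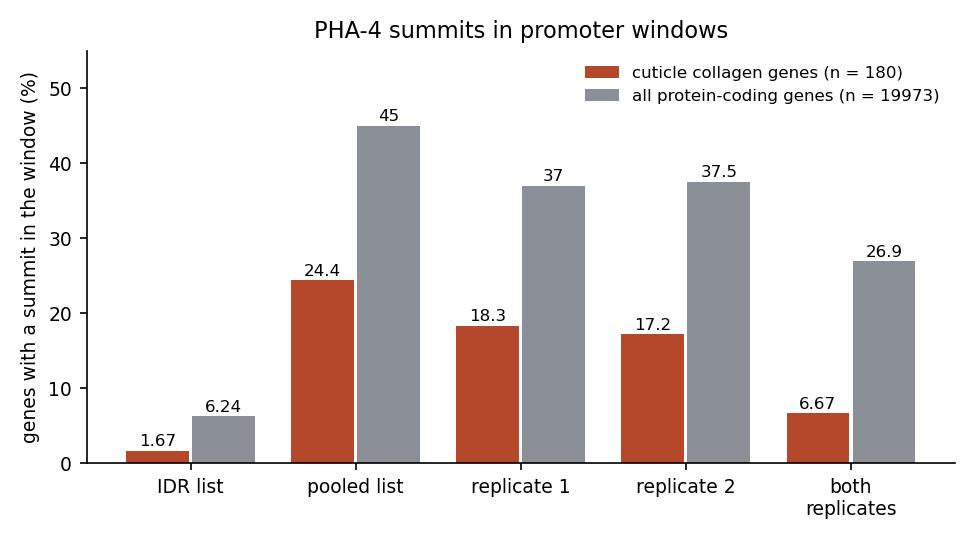
Percent of genes with a PHA-4 summit in the window, in the IDR list, the pooled list, each replicate's list and both replicates' lists, for the 180 cuticle collagen genes (red) and all 19973 protein-coding genes (grey). The collagen share is lower in each list, from 1.67% against 6.24% in the IDR list to 24.4% against 45.0% in the pooled list.

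The gap was widest among the regions just below the IDR list and narrowest among the weakest ones. Ranks count from 1 at the strongest pooled region, and the IDR list is the same as the pooled list's ranks 1 to 1484. Each gene was placed by its strongest region, so the shares here are of the genes with no stronger one. At ranks 1 to 1484 there were 3 collagen genes of 180 (1.67%, against 6.24% of all protein-coding genes). At ranks 1485 to 6000 there were 3 collagen genes of 177 (1.69%, against 14.3% of all protein-coding genes with no stronger region), and at ranks 6001 to 10000 there were 4 of 174 (2.30%, against 8.64%). At ranks 10001 to 20000 there were 18 of 170 (10.6%, against 14.4%), and at ranks 20001 to 30000 there were 16 of 152 (10.5%, against 12.6%). The collagen share was lower in each band, by less in the last ones, and the bands differ in width. Counted from the top, the strongest 6000 regions reached 6 collagen genes (3.33%, against 19.6%) and the strongest 10000 reached 10 (5.56%, against 26.6%). For the collagen genes with a region the median signal was 4.55, against 9.48 over all protein-coding genes with one. Signal is the authors' value for a region, on a scale that is not stated.

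**Figure D2:**
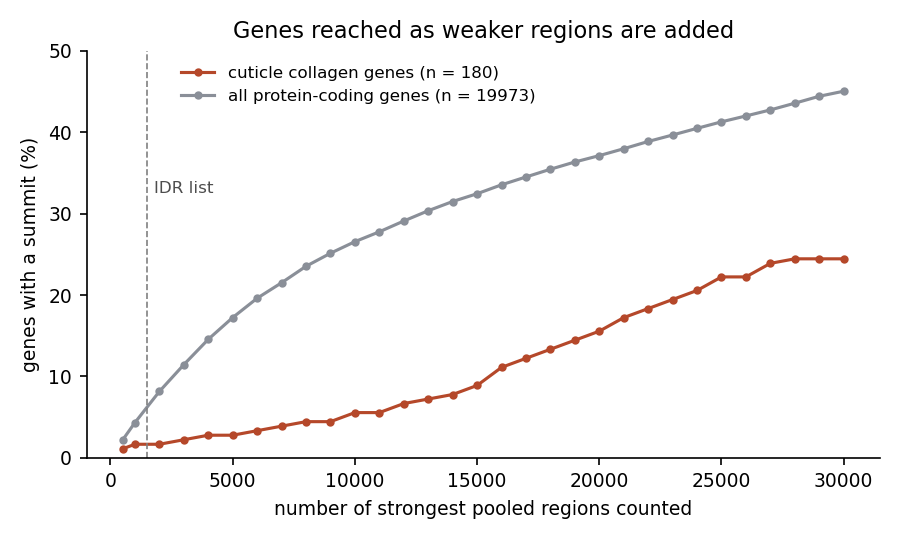
Percent of genes with a summit in the window (vertical axis) as more of the pooled regions are counted, from the strongest 500 to all 30000 (horizontal axis), for the cuticle collagen genes (red) and all protein-coding genes (grey). The dashed line marks the 1484 regions of the IDR list. The collagen curve stays at or below 5.56% to rank 10000, where the other stands at 26.6%.

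Each of the 3 collagen genes in the IDR list shared its region with a gene read in the opposite direction, and each summit lay nearer to that other gene. Shared IDR regions were common over all genes too. Of 1246 protein-coding genes with an IDR summit, 625 had one in no other protein-coding window. The sharing at these 3 genes therefore cannot be read as a trait of the collagen genes. At col-38 (WBGene00000615, II:8568035-8569088, minus strand) replicate 1 gave the region at II:8569385-8569694 a signal of 25.1 and replicate 2 gave it 20.9. Its pooled signal was 46.5, at rank 232. The replicates were close, and their summits were 31 bp apart. The summit lay 452 bp upstream of col-38 and 387 bp upstream of rpl-5, which encodes a protein of the large ribosomal subunit, outside both genes and inside 2 overlapping non-coding RNA genes, F54C9.16 and F54C9.17.

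At col-2 (WBGene00000593, IV:10084439-10085451, minus strand), a collagen gene known for expression in dauer larvae, the region at IV:10085714-10086023 had 12.2 in replicate 1 and 25.5 in replicate 2. Its pooled signal was 42.1, at rank 354. Replicate 2 was higher here, with rank 168 in its own list, against rank 2147 in replicate 1's list. The summit lay 418 bp upstream of col-2 and 268 bp upstream of ndc-80, which encodes a kinetochore protein. At bli-6 (WBGene00000256, IV:6377065-6378168, plus strand), a collagen gene named for its blistered mutants, the region had 12.1 in replicate 1 and 17.6 in replicate 2, with 32.8 in the pooled list at rank 807. The summit lay 315 bp upstream of bli-6 and 227 bp upstream of hrpf-2, an RNA-binding protein gene. No collagen gene had an IDR region in no other protein-coding window (0 of 180, exact 95% upper limit 2.03%), against 3.13% of all protein-coding genes. With each summit given only to the gene with the nearest 5′ end, 0 of the 180 collagen genes kept an IDR region, against 4.63% of all protein-coding genes. By its own strongest 1484 regions, replicate 2 reached col-38, col-2 and bli-6, while replicate 1 reached col-38 alone (1 gene, 0.556%, against 5.91% of all).

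**Figure D3:**
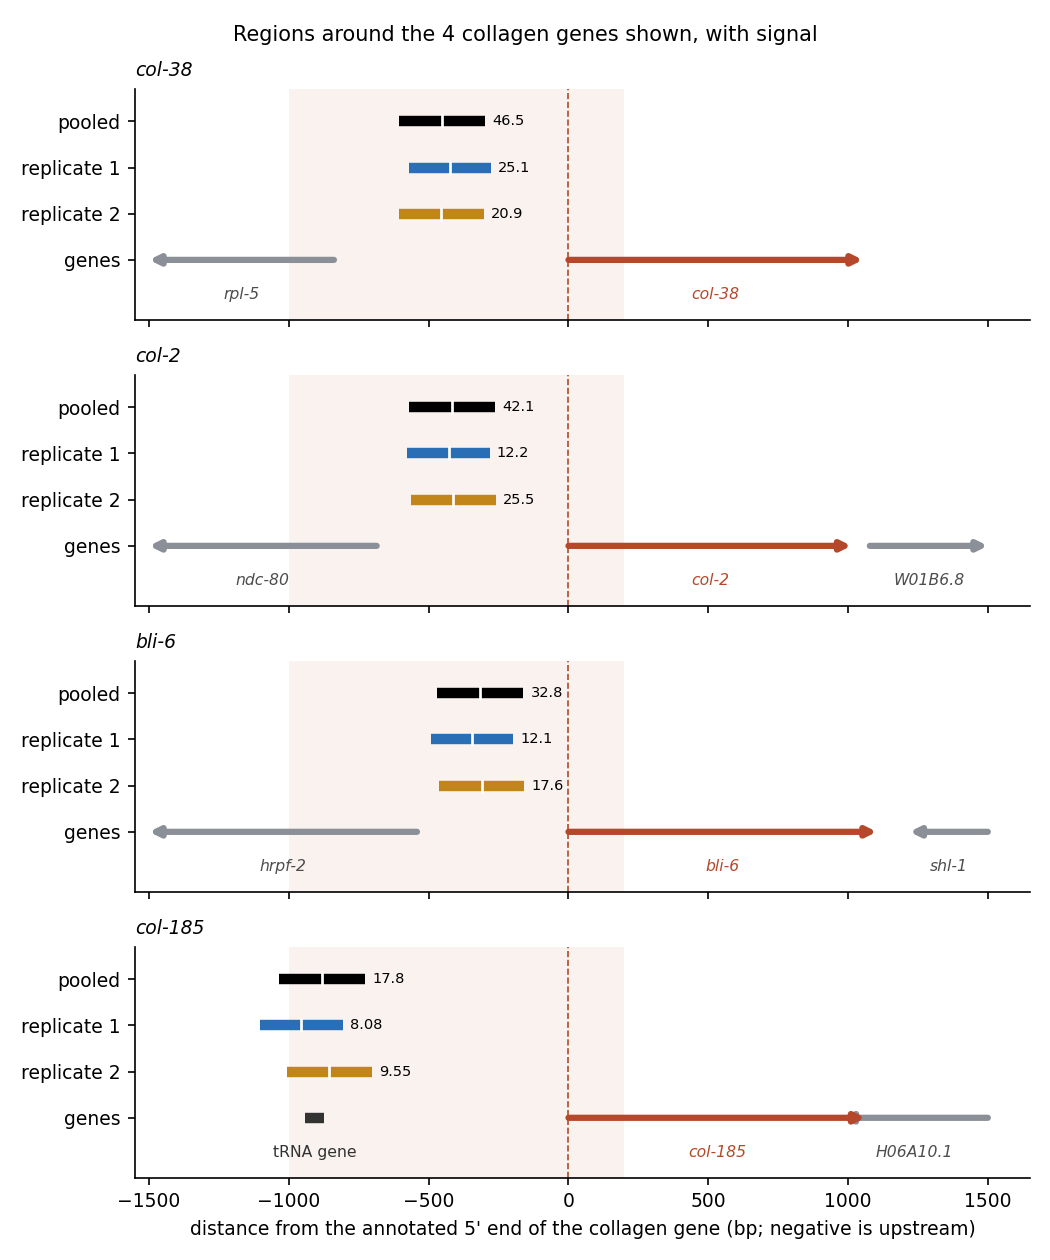
Regions of the pooled list (black), replicate 1 (blue) and replicate 2 (orange) around col-38, col-2, bli-6 and col-185, by distance in bp from the collagen gene's 5′ end, with the signal printed beside each region, a white tick at its summit, and arrows for protein-coding genes (red for the collagen gene). The shaded band is the window. At the upper 3 genes the region lies between the collagen gene and an oppositely directed neighbour, and at col-185 it lies on a tRNA gene.

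The next genes below the IDR list, whose lowest signal was 25.9, were col-71, col-185 and col-8. At col-71 the pooled signal was 22.0 (rank 2147), with 14.5 in replicate 1 and 7.92 in replicate 2, and the summit lay 281 bp upstream of col-71 and 117 bp upstream of Y49F6B.2. At col-185 the pooled signal was 17.8 (rank 3143), with 8.08 in replicate 1 and 9.55 in replicate 2. No other protein-coding window held that summit, which made col-185 the strongest collagen gene with a region of its own by protein-coding annotation. The summit lay 882 bp upstream of col-185, inside a tRNA gene (X:13511970-13512041) and a non-coding RNA gene, H06A10.3. At col-8 the pooled signal was 13 (rank 5026), with 2.02 in replicate 1 and 10.3 in replicate 2, whose summits were 454 bp apart. The pooled summit lay 846 bp upstream of col-8, in an intron of rfl-1, which encodes a subunit of the NEDD8-activating enzyme.

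After col-185, the strongest regions in no other protein-coding window were at col-74, col-97, col-127 and col-178. Their pooled signals were 10.5, 9.42, 8.02 and 7.87, all below the IDR list. At col-74 replicate 1 had 4.53 and replicate 2 had 2.12, but the replicates' summits were 752 bp apart, and the pooled summit lay in an intron of gtap-1. At col-97 replicate 1 had 5.17 and replicate 2 had 2.25, 123 bp apart. The replicates thus pointed to the same place at col-97 and not at col-74. At col-127 neither replicate listed a summit, and the pooled summit lay 4 bp downstream of its 5′ end. At col-178 the pooled summit lay 19 bp upstream of the 5′ end, where replicate 1 had 4.56 and replicate 2 had 3.44 within 150 bp, and replicate 2 had a slightly stronger summit of 4.59 elsewhere in the window.

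The remaining collagen-named genes with a region had pooled signals of 2.70 to 6.58. The col-104 region (6.27) had 4.65 in replicate 1 and no summit in replicate 2, and that of col-107 (5.49, in an intron of C34H4.5) had none in either. Over the whole set, 7 genes had a pooled signal over 10 and 37 had 10 or less. This split was not counted over all protein-coding genes, whose median signal, where they had a region, was 9.48. Of the 44, the region lay in another protein-coding window at 9 and in no other at 35 (19.4% of the 180, against 33.1% of all protein-coding genes). The 9 were 20.5% of the 44, against 30.2% of all protein-coding genes with a pooled summit. At 8 of the 9 shared regions the summit was nearer to the other gene, the exception being col-113 (pooled 6.20; 206 bp upstream, against 947 bp for C34D4.3). How often this is so over the shared regions of all genes was not counted. The shared regions at col-109 (5.25, with Y38C1BA.4), col-151 (3.75, with ugt-1) and col-69 (2.70, with K01A2.4) were among those nearer to the other gene. The summit lay upstream of the nearest 5′ end at 41 of the 44 and downstream at 3, with a median of 390 bp upstream. It lay outside protein-coding genes at 26 and inside one at 18, such as an intron of col-47 at col-46 (4.96) and the coding exon of col-179 itself (5.25). The window reaches 1000 bp upstream and only 200 bp downstream, which by itself places most summits upstream. Neither split was counted over all genes.

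Few of the pooled summits had a summit of both replicates at the same place. Of the 44 pooled summits, 7 had a summit of both replicates within 150 bp (15.9%, against 47.4% over the strongest regions of all protein-coding genes with one). A summit of replicate 1 only stood at 11 (25%, against 18.4%), of replicate 2 only at 13 (29.5%, against 19.4%), and of neither at 13 (29.5%, against 14.7%). Among the 41 regions below the IDR list, 4 had both (9.76%, against 39.2%). The signals of the collagen genes' regions were also lower, as given above, and the part of signal in these shares was not tested. Of the 12 genes with a summit in both replicates' lists, the strongest summits lay within 150 bp of each other at 6, namely col-38, col-2, bli-6, col-71, col-185 and col-97. The same share was not taken over all protein-coding genes. Replicate 1 was the higher by most at col-97 (log2 ratio of replicate 1 to replicate 2 of 1.2), col-74 (1.09) and col-71 (0.87). Replicate 2 was the higher by most at col-8 (-2.35), col-2 (-1.06) and bli-4 (-0.84). The ratios at col-74, col-8 and bli-4 compare summits over 150 bp apart, at bli-4 by 151 bp. In the replicates' own lists, 19 further genes had a summit that the pooled list did not, the strongest at col-43 (7.34, replicate 1) and col-120 (5.16, replicate 1). The matching number over all protein-coding genes was not counted, so the 19 cannot be read as a trait of the collagen genes.

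**Figure D4:**
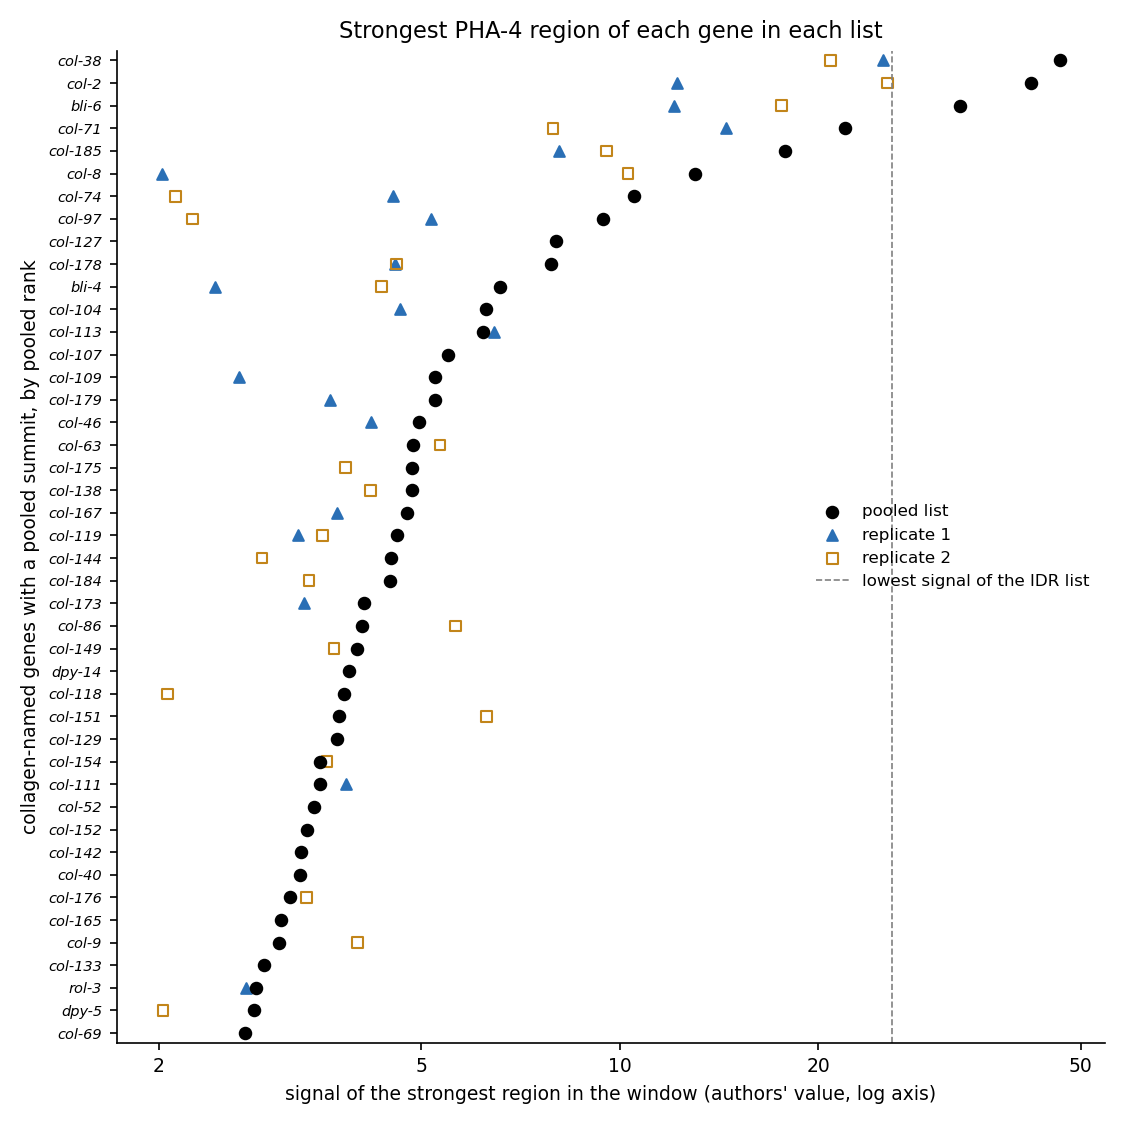
Signal of the strongest region in the window in the pooled list (black circles), replicate 1 (blue triangles) and replicate 2 (orange squares), on a log axis, for the 44 collagen-named genes with a pooled summit, ordered by pooled rank from the top. A missing symbol means that the replicate listed no summit in the window. col-38, col-2 and bli-6 lie right of the dashed line, the lowest signal of the IDR list (25.9), and 37 of the 44 lie at 10 or less. The split at 10 was not counted over all protein-coding genes.

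The members best known from mutants with altered body shape had few regions. These bli, rol, sqt and dpy genes include bli-3, bli-4, bli-5 and rol-3, which hold no Gly-X-Y repeat. Of the 24 bli, rol, sqt and dpy genes, 5 had a pooled summit (20.8%, against 25% of the 156 col genes and 45.0% of all protein-coding genes). They were bli-6, the convertase gene bli-4 (6.58; 2.43 in replicate 1 and 4.35 in replicate 2), dpy-14 (3.88, in an intron of dpf-3, in neither replicate), the kinase gene rol-3 (2.81; 2.71 in replicate 1 only) and dpy-5 (2.79; 2.03 in replicate 2 only). At dpy-5 the replicate 2 summit lay 61 bp upstream of the 5′ end and the pooled summit 443 bp upstream, so neither replicate listed the pooled region itself. None of the 6 furrow collagen genes dpy-2, dpy-3, dpy-7, dpy-8, dpy-9 and dpy-10, whose products form the circumferential furrows of the cuticle, had a summit in any of the 4 lists. The same held for the annular collagen genes dpy-4 and dpy-13, for bli-1 and bli-2, whose products form the struts of the adult cuticle, for rol-1, rol-6, sqt-1, sqt-3 and dpy-17, and for col-7, col-19 and col-62, which are known for adult expression. Such absence was common, at 65.0% of the 180 genes and 47.6% of all protein-coding genes, so it does not set these small groups apart. The rol-8 and sqt-2 windows had a summit in replicate 1 only (3.35 and 3.47). The nearest pooled summit to dpy-7 lay 621 bp downstream of its 5′ end, past the window's edge and inside the gene. Those of dpy-4 and dpy-3 lay 22045 and 8068 bp away. The nearest to rol-6 lay 704 bp downstream of its 5′ end, also inside the gene, and the nearest to dpy-10 was 1372 bp from its 5′ end.

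The collagen genes are spread over all 6 chromosomes, and on each the share with a pooled summit was below that of all protein-coding genes. On chromosome I it was 24.0% of 25 genes against 53.6%, on II 18.2% of 33 against 43.8%, and on III 14.3% of 14 against 58.2%. On IV it was 28.9% of 45 against 44.6%, on V 21.2% of 33 against 31.6%, and on X 33.3% of 30 against 49.8%. The gap was thus widest on III and narrowest on V. Direct neighbours are common in the family, with 48 genes in 20 runs of 2 to 5 adjacent members. Of these 48 genes 11 had a pooled summit, against 44 of the 180 collagen genes and 45.0% of all protein-coding genes. No pooled region was shared by members of a run, and the longest run (col-167 to col-171 on X) had a region at col-167 alone (4.76).

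Around the 5′ end, the collagen genes held fewer summits than all genes in each 200 bp step, and the gap in percentage points was widest right upstream of it. In the 200 bp next to the most upstream 5′ end, on its upstream side, 8 collagen genes (4.44%) had a pooled summit, against 15.6% of all protein-coding genes. In the next 200 bp outward there were 12 (6.67%, against 11.2%), and in the first 200 bp downstream 2 (1.11%, against 6.76%). From 2000 to 1000 bp upstream the share per 200 bp ran from 0.556 to 3.89%, against 5.97 to 6.75%. The lower share therefore reached beyond the window, and the median distance from a 5′ end to the nearest pooled summit was 1998 bp, against 920 bp over all genes. To the nearest IDR summit it was 29948 bp, against 26651 bp.

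**Figure D5:**
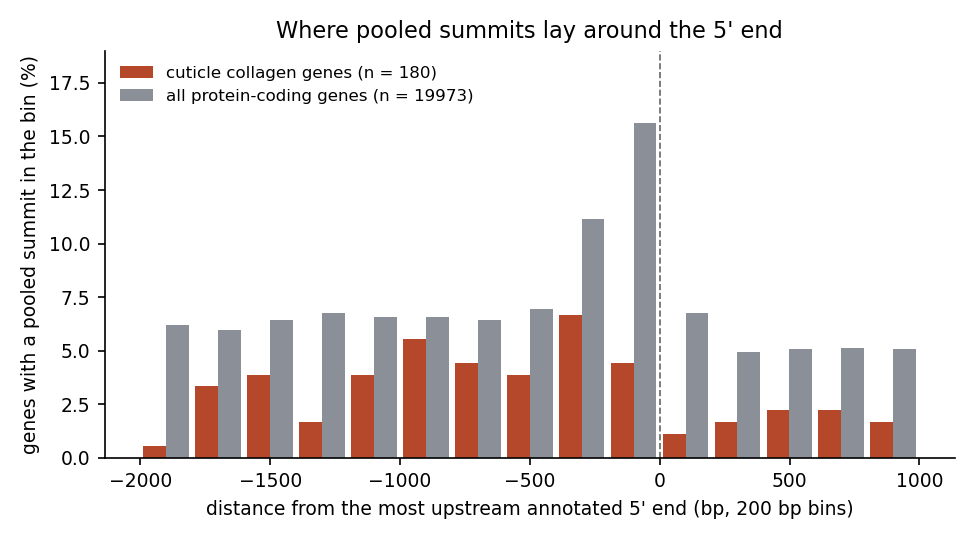
Percent of genes with a pooled summit in each 200 bp bin from 2000 bp upstream to 1000 bp downstream of the most upstream annotated 5′ end (dashed line at 0), for the cuticle collagen genes (red) and all protein-coding genes (grey). Over all genes the bin next to the 5′ end reaches 15.6%, where the collagen genes stand at 4.44%.

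Some features of the windows differed from those of other genes. Collagen genes more often had 1 annotated 5′ end (86.7% against 72.6%), and their windows averaged 1262 bp, against 1459 bp. Per kb of window they held 0.211 pooled summits against 0.446, and 0.0132 IDR summits against 0.0436. Among genes with 1 annotated 5′ end, 36 of 156 collagen genes had a pooled summit (23.1%, against 38.4% of all such genes), 3 an IDR summit (1.92%, against 5.06%) and 10 a summit in both replicates (6.41%, against 21.3%). Among genes whose window overlapped no other protein-coding window, 30 of 122 had a pooled summit (24.6%, against 40.3%) and 0 of 122 an IDR summit (exact 95% upper limit 2.98%), against 3.84%. A summit in both replicates was found at 6 of these 122 (4.92%, against 21.8%). Among those with an overlapping window, 3 of 58 had an IDR summit (5.17%, against 10.4%), 14 a pooled summit (24.1%, against 53.3%) and 6 one in both replicates (10.3%, against 35.9%). Sequence that occurs more than once in the genome made up less of the collagen windows, at a mean of 4.09% of 31-base words against 6.01%. In genes with at most 10% of such words, 24.5% of 159 collagen genes had a pooled summit, against 48.4% of all. The part of these window features in the lower shares was not tested beyond these subsets.

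The PHA-4 consensus was scarcer at these genes. It was searched as the letters T, A or G, T, T, G or T, A or G, C or T, on both strands with overlaps allowed. It stood within 50 bp of the summit in 9 of the 44 strongest pooled regions (20.5%), against 33.4% of all pooled regions and 48.2% of the IDR regions. The windows shown for col-38, col-2 and bli-6 held no match, and that of col-71 held 1 at 27 bp from the summit. In the 300 bases from 250 upstream to 50 downstream of the most upstream 5′ end, 98 collagen promoters held a match (54.4%), against 66.8% of all protein-coding promoters. Those promoters also had a median GC content of 38.0%, against 34.3%, and the part of base composition in these shares was not tested. TGATAA, a site that GATA factors bind, was found in 56 on either strand (31.1%, against 30.2%). ATTGCGGACTTG, the 12 bases that col-38 and bli-6 share, was found after their sequences were compared. It occurs at 21 places in the genome on either strand, and within 50 bp of 4 IDR summits (0.270%) and 10 pooled summits (0.0333%). The other pairs among the upper 3 windows shared at most 8 bases.

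Lists of genes that act on collagens or control the epidermis are set here beside all protein-coding genes, of which 45.0% had a pooled summit, 26.9% one in both replicates and 6.24% an IDR summit, with 0.446 pooled summits per kb of window. Of 20 genes for collagen maturation and cross-linking, 14 (70.0%) had a pooled summit, 8 had one in both replicates and 0 an IDR summit. The strongest were tsp-15, a tetraspanin gene acting with the dual oxidase BLI-3 (25.1; 13.9 in replicate 1 and 8.39 in replicate 2), tmem-131, which acts in collagen secretion (21.4; 16.4 and 5.71 in replicates 1 and 2; region shared with smcr-8), and the disulfide isomerase gene pdi-1 (20.4; 15.6 and 6.85; region shared with C14B1.2). The prolyl hydroxylase gene phy-2 had 11 and dpy-18 had no pooled summit. Of 26 genes for epidermal and molting regulators, 19 (73.1%) had a pooled summit, 13 had one in both replicates and 2 an IDR summit. These were sma-9 (32.9; 32.4 in replicate 1 and 4.42 in replicate 2), a zinc-finger factor of the body size pathway, in its own intron, and myrf-1 (30.2; 21.1 and 8.20), a membrane-bound factor needed for molting. Within 150 bp of the pooled summit at sma-9, replicate 2 had 3.96. The next were the Smad genes sma-2 (25.4, shared with ugtp-1 and in its intron) and sma-3 (15.9) and myrf-2 (12.1). Their windows averaged 2441 bp, and they held 0.614 pooled summits per kb, against 0.729 for the maturation genes and 0.211 for the collagen genes. Of 18 other cuticle and apical matrix genes, 7 (38.9%, against 45.0% of all) had a pooled summit, led by mlt-11 (8.15), cut-5 (7.10) and lpr-3 (4.75), with 1 gene in both replicates. Of 6 collagen genes outside the naming rule, mec-5 alone had a pooled summit (6.06), and the basement membrane collagen genes emb-9 and let-2 had none. The lists are short and overlap, with bli-3, bli-4 and bli-5 also among the 180, and the differences between lists were not tested.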

How the data were processed

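The authors deposited lists of regions in narrowPeak layout, and the ce11 lists were used. Per the deposited manifests, the list of each replicate comes from its own alignments, the pooled list from both, and the IDR list from these 3. The manifests also list a further source of the region lists without naming its kind, so whether it is a control is unknown. Neither the peak caller nor the IDR threshold is given in the sources used here. Signal values of regions are those the authors deposited in the seventh column. Library fragments were 150 to 350 bp per the labels. The files give no read counts, so depth is unknown. No p-value was computed. ce11 has the sequence of WBcel235, and all region ends lay within its chromosomes. Genes came from Ensembl release 115, and sequences from RefSeq. All 1484 IDR regions were found in the pooled list.

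Scripts ran in Python 3.11.15 (SciPy 1.17.1, NumPy 2.4.6, pandas 2.3.3), with figures by matplotlib 3.10.9. The summit was the region start plus the tenth column. Gly-X-Y triplets were counted in translated coding sequences, in runs of at least 3. A replicate's value is that of its strongest summit in the window, or, where said to be at the pooled summit, within 150 bp. Genes named are those with an IDR summit, the 15 strongest, all bli, rol, sqt and dpy genes with a pooled summit, the 5 strongest with an unshared region, the 3 highest and 3 lowest replicate ratios and the 3 next below the IDR list. Of the other lists, those with an IDR summit and the 3 strongest others are named. Further genes were named after their values were seen. The genes and lists were chosen with earlier results of these data known. The window code was tested on simulated summits.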

Additional observations from a re-analysis of the deposited data

How the results depend on the processing

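The share of collagen genes stayed below that of all protein-coding genes under each window, overlap and 5′ end setting tried, but several counts moved. From 2000 bp upstream to 500 bp downstream, 24 genes had a summit in both replicates (13.3%, against 36.3% of all). An IDR summit was found at 4 genes (2.22%, against 8.19%). The gain was col-94, with a summit of signal 29.9 at 1746 bp upstream, in no other protein-coding window. From 500 bp upstream to 100 bp downstream, 26 had a pooled summit (14.4%, against 35.3%) and 7 one in both replicates (3.89%, against 19.7%). With the nearest 5′ end only, 0 had an IDR summit (0 of 180, against 4.63%) and 6 a summit in both replicates (3.33%, against 21.7%). Requiring replicate summits within 150 bp left 6, a setting not run over all protein-coding genes. In place of the IDR list, the strongest 6000 and 10000 pooled regions gave 6 and 10 genes (3.33 and 5.56%, against 19.6 and 26.6% of all). Leaving out each replicate gave 1 to 3 genes in the strongest 1484 regions (0.556 to 1.67%, against 5.91 to 6.04% of all). In the whole list it gave 31 to 33 (17.2 to 18.3%, against 37.0 to 37.5% of all). Of 18 single genes followed, 5 lost their region with the narrower window (col-185, col-97, col-109, dpy-14 and rol-3) and 5 with the nearest 5′ end (col-38, col-2, bli-6, col-71 and col-109). The strongest region changed at col-178 with the wider window (17.2) and at col-8 with the narrower window and the nearest 5′ end (3.21 in both). Collagen repeats from a protein table were not run. They were counted in coding sequences, an alternative added after the data were seen like the one on repeated words. This left 42 genes with a pooled summit of 175 (24.0%, against 45.0% of all protein-coding genes). No paired analysis was possible because there is 1 group. Depth is unknown, so whether weaker binding was missed cannot be told.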
